A study of Homo sapiens and Homo sapiens
Mus with 12 samples.

Results

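UM-UC-3 is an established human cell line from an advanced bladder cancer. Control UM-UC-3 cells were sequenced both as tumors grown under the skin of mice and as cells grown in plastic dishes, and the values below compare those tumors with those cultures. The comparison held 8 of the 24 libraries of the series, chosen by their labels alone: the 5 tumor libraries (tumors 1 to 5) and the 3 culture libraries (cultures 1 to 3) of the control cells, called shCtrl. The study asked what loss of CDH11, a cadherin that joins cells to each other, does to these cells, and the other 16 libraries (6 cultures and 10 tumors) came from cells with a hairpin RNA against CDH11, called sh#1 or sh#2, and are used here only as a second set in which tumors can be set against culture.

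All cells carried a lentiviral GIPZ vector with green fluorescent protein, and the positive cells had been collected by flow sorting. The shCtrl cells carried a non-silencing hairpin in that vector, although the culture labels name their treatment WT. The cultures were collected 24 h after seeding in 12-well plates. For the tumors, cells in Matrigel were injected subcutaneously into male BALB/cAJcl-nu/nu nude mice aged 5 weeks, and tumors were taken 4 weeks later. Nude mice lack a thymus and so mature T cells, but keep macrophages, natural killer cells, fibroblasts and vessels. Each tumor library therefore held human and mouse RNA, which the deposited files give as separate tables. Of 23 joined markers of bladder cancer subtypes and urothelium, only 3 had enough counts to test in these cells. In such bulk RNA, fewer cells of a type and less RNA per cell cannot be told apart.

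A tumor differs from a dish in oxygen, nutrients, matrix, neighbouring cells and the time since plating. Low oxygen stabilizes hypoxia-inducible factors, which switch on glycolytic enzymes, carbonic anhydrases and vessel-forming signals. Interferons act on interferon-stimulated response elements and switch on antiviral genes such as ISG15, the IFIT family and the OAS enzymes. Growth factors and stress switch on immediate early genes such as EGR1 and FOS within minutes, in part through serum response factor bound to CArG boxes.

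Genes were compared by protein-coding symbols that occurred once in both the human tumor table and the culture table, which left 14684 genes. These held 99.1% of the counts in each culture and between 88.9% and 90.9% of the human counts in the tumors. Total counts were 2292088 to 2434537 in the cultures and 635024 to 1248977 human counts in the tumors, and mouse counts made up 10.4% to 14.4% of all counts of a tumor. A single mouse gene entry held 38867 to 53219 of these mouse counts, and without it the mouse share was 7.13% to 9.87%. The 100 most counted genes took 39.8% to 40.4% of the joined counts in culture and 29.2% to 32.6% in the tumors. The cultures were read on a NextSeq 500 and the tumors on a NovaSeq6000, with different trimming and mapping, so the growth system and the way the libraries were made, read and counted cannot be told apart. P-values therefore measure only the spread among these libraries. A gene was called only at a log2 fold change of at least 2, which is a 4-fold difference, with an adjusted p under 0.05.

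Promoter sequences of genes that rose are shown first, with that of SRF, which fell but belongs with EGR1 by its CArG box. In each line, taken from RefSeq on GRCh38.p14 within the 250 bases before the gene start, capitals mark the match. The first lines belong to interferon-stimulated genes and were searched on both strands for GAAA, any 2 bases, GAAA, the core of the response element, so that a match on the opposite strand reads TTTC, 2 bases, TTTC. The last lines belong to EGR1 and SRF and carry the CArG box.
ISG15 (chr1:1013380-1013409): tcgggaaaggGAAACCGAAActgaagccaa
IFIT1 (chr10:89392510-89392539): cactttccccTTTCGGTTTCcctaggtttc
IFIT3 (chr10:89327865-89327894): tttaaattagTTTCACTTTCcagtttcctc
IFI44 (chr1:78649759-78649788): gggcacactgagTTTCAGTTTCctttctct
IFI27 (chr14:94110618-94110647): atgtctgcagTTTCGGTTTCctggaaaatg
IFIH1 (chr2:162318686-162318715): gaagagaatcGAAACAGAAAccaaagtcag
EGR1 (chr5:138465364-138465393): gccggtcctgCCATATTAGGgcttcctgct
EGR1 (chr5:138465386-138465415): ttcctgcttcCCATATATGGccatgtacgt
SRF (chr6:43171229-43171258): ctggggctcaCCATATAAGGagcggcctcg

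IFIH1 lies on the minus strand and the other genes shown on the plus strand, and every line reads 5′ to 3′ along its gene. The promoters of ISG15, IFIT1, IFIT3, IFI27, IFIH1 and SRF held further matches that are not shown. A promoter entry was found for 18 of the 19 interferon-stimulated genes described below, and 12 of these 18 (66.7%) held the GAAA pair. Of the 10 called higher, 6 held it, and OAS1, IFI35, HERC6 and SAMD9L did not. Among members not called, it stood in IFIT5, ISG20, OAS3, HERC5, PARP14 and SAMD9 but not in STAT2 or PARP9. The pair stood in 3.07% of all 27305 promoters of the same length and in 2.35% of the 5487 that belonged to tested genes. A CArG box stood in 2 of the 10 immediate early promoters with an entry, those of EGR1 and SRF, against 1.14% of all promoters and 1.09% of those of tested genes. A match describes the letters of the window and was not tested for binding.

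Of 9156 genes with enough counts to test, 225 (2.46%) were called higher in the tumors and 554 (6.05%) lower. Many of the lower calls came from genes that share transcribed sequence with another gene. The end of a gene was called unshared when no exon of another gene, on either strand, lay over the last 500 bases of its transcript, under 10% of all its exon bases lay over another gene's exons, and under 10% of the 75-base stretches of that end recurred in another gene. All other ends were called shared. This definition was set after the values had been seen. Of the 156 genes with a log2 fold change under -5, 96.8% had shared ends, against 22.9% of the 6694 genes between -1 and 1. Of the 81 genes above 3, 17.3% had shared ends.

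**Figure D1:**
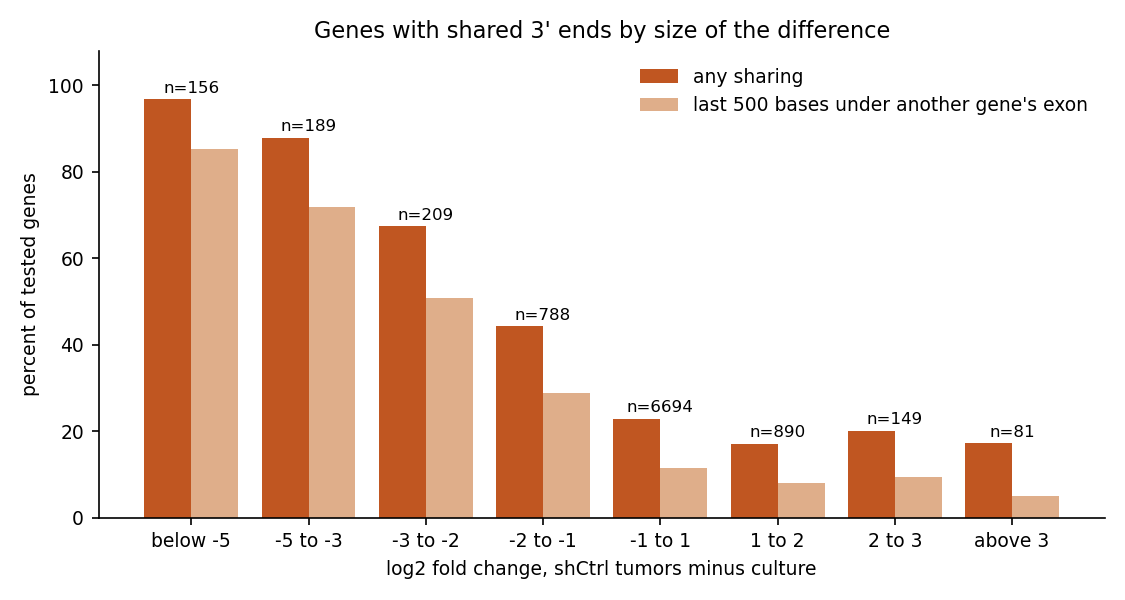
Percent of genes with shared transcript ends, on the vertical axis, in bins of the log2 fold change between shCtrl tumors (n = 5) and cultures (n = 3), with a second bar for genes whose last 500 bases lie under an exon of another gene. The share was 96.8% in the bin of largest falls, 22.9% in the middle bin and 17.3% in the bin of largest rises.

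The largest falls of all were genes of this kind. EEF1G, a subunit of the translation elongation factor, was at 1622, 1699 and 1656 normalized CPM (counts scaled to the library size) in cultures 1 to 3 and at 0 in all 5 tumors, at least 2747-fold lower when the floor is set at 3 counts over the 5 tumors. A readthrough transcript covers 98.6% of its last 500 bases. ARL6IP4, DDT and PTP4A1 were also at 0 in all 5 tumors, at least 365-fold, 316-fold and 182-fold lower, and their ends overlapped another gene by 99.6%, 100% and 99.8%. CAPN12, a protease gene whose end lies across that of ACTN4 on the other strand, had 4598 counts in the cultures and 2 in the tumors, a ratio of 2074 (95% counting interval 574 to 17130). The counting intervals here and below concern the summed counts only and leave out the spread between libraries. Of 73 genes with at least 20 CPM in culture and at most 3 counts over the 5 tumors, 72 (98.6%) had shared ends. How shared sequence was counted is not given for either system, so that a loss of these transcripts in tumors and a difference in counting cannot be told apart. The glycolytic enzymes ALDOA and GAPDH have shared ends as well and are in the same position.

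All results below therefore concern the 6618 tested genes whose ends were not shared, unless stated. Of these, 181 (2.73%) were called higher in the tumors and 96 (1.45%) lower. These shares are the background for each count of called list members with unshared ends in the control cells below. Their median log2 fold change was 0.15, against 0.03 over all tested genes and -0.39 over the 2538 with shared ends. Rises made up 65.3% of the calls among genes with unshared ends and 28.9% over all genes. Upper quartile scaling in place of the main scaling moved the median of all genes from 0.03 to 0.20. At an adjusted p under 0.05 with no limit on the fold, 54.0% of the genes with unshared ends differed between the systems, and in 48.1% the 3 cultures did not overlap the 5 tumors. A difference of small size is therefore near the background of this comparison. The results center on large or list-wide differences, and values of single genes under the 4-fold limit are given as description only.

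**Figure D2:**
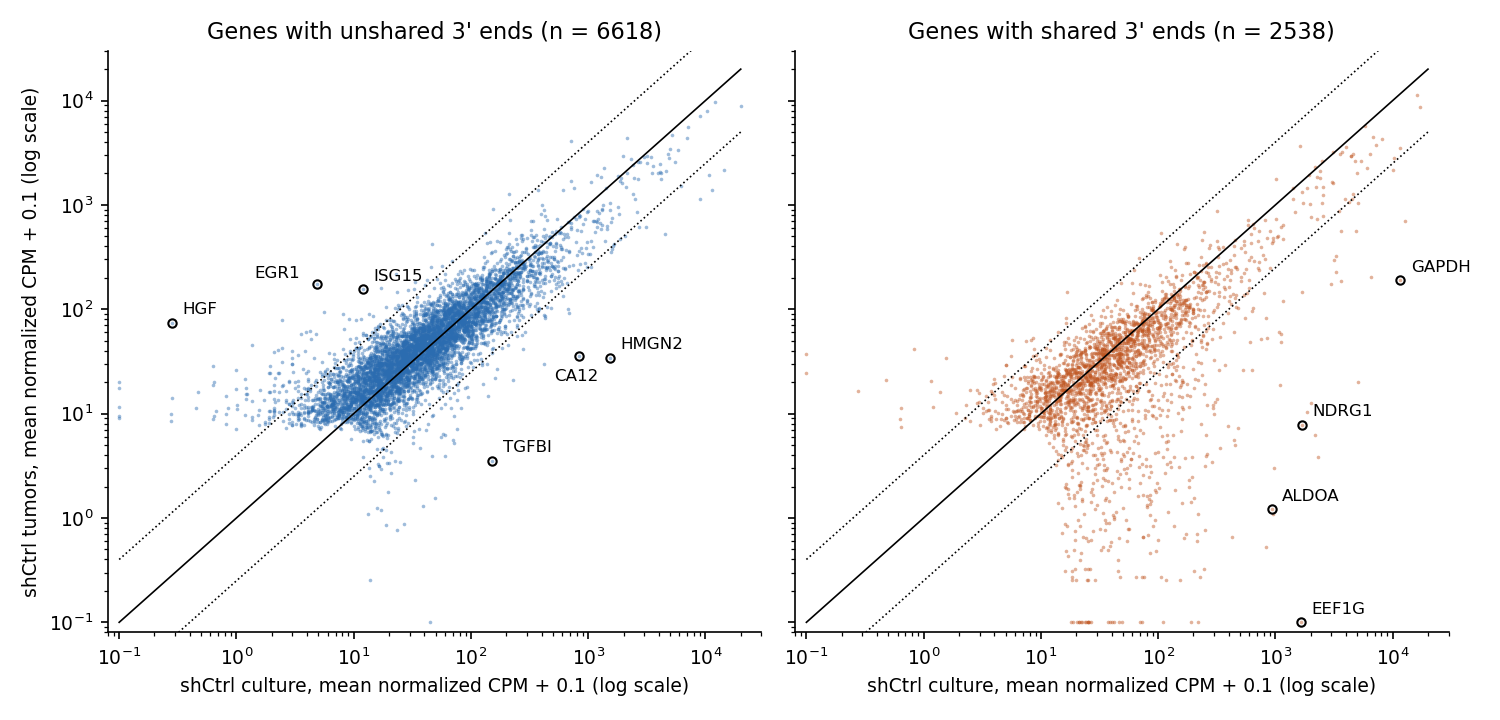
Mean normalized CPM + 0.1 in shCtrl culture (horizontal, n = 3) and in shCtrl tumors (vertical, n = 5), both on log axes, one point per gene, for genes with unshared ends (left, n = 6618) and shared ends (right, n = 2538). The solid line marks equal values and the dotted lines 4-fold differences, and the points far below them lie mostly on the right.

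Antiviral genes induced by interferon were higher in the tumors. Of 19 tested members of the interferon-stimulated list, 10 were called higher and none lower, against 2.73% and 1.45% of all genes with unshared ends. The median log2 fold change of the list was 2.12, against 0.15 over all genes, and all 19 members were above 0. Removing the trend with transcript length, another scaling or a fit of the unshared genes alone left the median between 2.01 and 2.28. It was 1.98 without tumor 4, 1.82 without tumor 5 and 1.81 when replicate numbers were fitted as a block. Over the 11 members with at least 10 counts in every library the median was 1.32.

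ISG15, a small ubiquitin-like protein that is attached to other proteins during an antiviral response, stood at 10.8, 11.9 and 12.6 CPM in cultures 1 to 3 and at 98.8, 54.8, 149, 213 and 269 CPM in tumors 1 to 5. Every tumor was above every culture, and tumors 4 and 5 were the highest. Its log2 fold change was 3.69 ± 0.65 (SE, adjusted p = 0.00261 by edgeR's quasi-likelihood test). In the median library ISG15 went from percentile 46.2 of the joined genes in culture to 93.2 in the tumors, a ranking that uses no scaling between systems.

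IFI44, an interferon-induced protein of the cytoplasm, was at 10.3, 7.95 and 8.95 CPM in culture and 73.9, 29.5, 85.4, 110.4 and 101 CPM in the tumors. Its log2 fold change was 3.12 ± 0.41 (adjusted p = 8.11e-05). OAS1, which makes the 2-5A signal that activates RNase L, was at 1.08, 2.84 and 2.63 CPM against 24.9, 7.38, 17.8, 36.2 and 35.7 CPM. In both genes the groups did not overlap, and tumor 2 was the lowest tumor. IFIT1, which binds foreign RNA ends, was at 5.42, 1.14 and 2.11 CPM in culture and 23.4, 7.38, 31.1, 56.1 and 52.0 CPM in the tumors. IFIT3, its partner, was at 2.71, 2.84 and 2.63 CPM against 14.01, 13.7, 18.9, 30.2 and 25.3 CPM. The log2 fold changes were 3.42 ± 0.49 for OAS1, 3.48 ± 0.76 for IFIT1 and 2.85 ± 0.38 for IFIT3. Here too no tumor overlapped a culture, with tumor 2 lowest again.

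IFI27 had 2 counts over the cultures and 83 over the tumors, a ratio of 46.0 (95% counting interval 12.3 to 386), with none in tumor 2. Its adjusted p was 0.0194, and it lost the call when any 1 culture was left out (adjusted p 0.0560 to 0.0616). The other called members were the RNA sensor IFIH1, the ligase HERC6, SAMD9L and IFI35, with log2 fold changes between 2.12 for IFI35 and 2.33 for SAMD9L. These stood near the limit of 2. IFI35 came to 1.995 without culture 1 and 1.998 without tumor 4, and SAMD9L to 1.94 without culture 2. Without tumor 4, 7 of 17 tested members were called. A filter of at least 10 counts in every library left 11 members, of which 2 were called, so that most of the list rests on low counts in culture.

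HLA-E, a major histocompatibility complex class I molecule, was at 62.3, 63.0 and 65.8 CPM against 142, 145, 211, 195 and 169 CPM, a log2 fold change of 1.43 ± 0.15 with no overlap. B2M, the light chain of the same complex, was at 497, 571 and 567 CPM against 648, 480, 722, 1216 and 587 CPM and did not pass the test (log2 fold change 0.43 ± 0.28, adjusted p = 0.239). In the class I list, 1 of 6 members was called higher and none lower, with a median of 1.05. The called gene was NLRC5, the transactivator of class I genes, whose log2 fold change of 2.14 ± 0.44 came to 1.65 without culture 1, 1.89 without tumor 4 and 1.93 with the length trend removed, which leaves no call in the list.

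**Figure D3:**
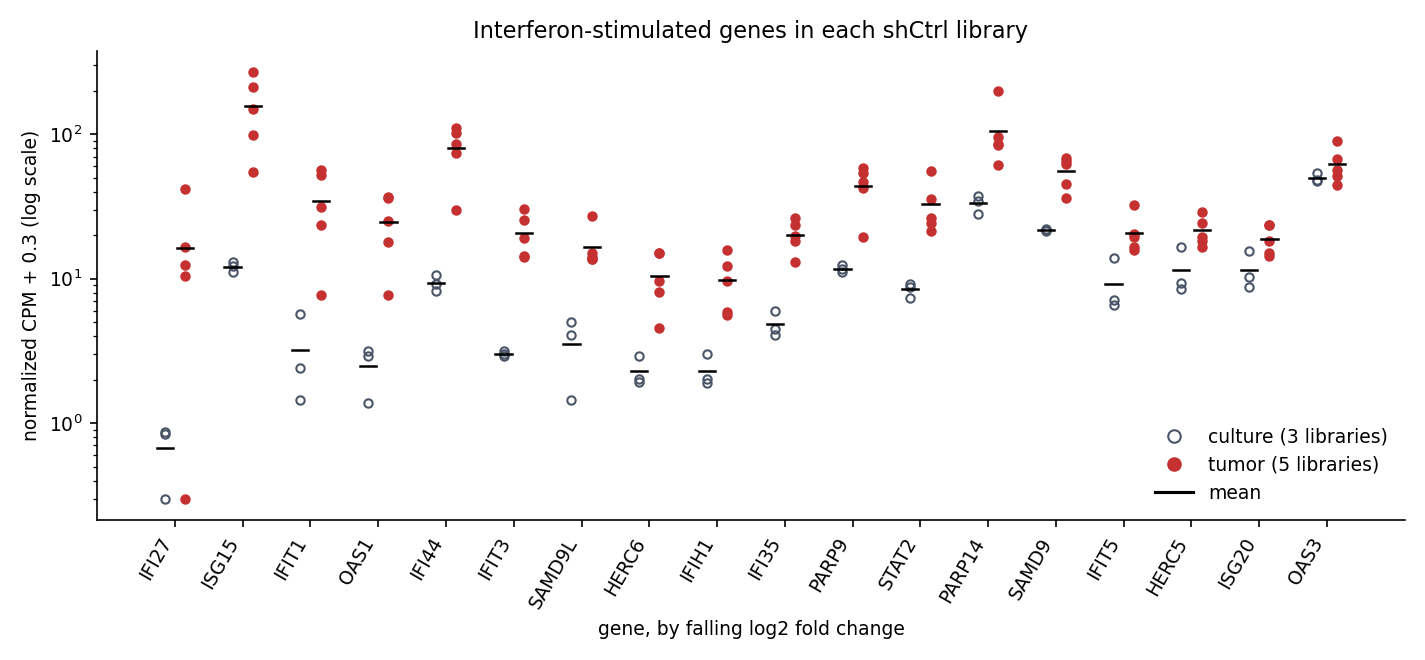
Normalized CPM + 0.3 on a log axis for 18 interferon-stimulated genes with unshared ends, one point per shCtrl library, with open circles for the 3 cultures, filled circles for the 5 tumors and a bar at each mean. For ISG15 the cultures sit at 10.8 to 12.6 CPM and the tumors at 54.8 to 269 CPM.

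The tumors differed among themselves in this group. Summed over the 10 called genes, tumors 1 to 5 stood at 298, 149, 364, 570 and 557 CPM, and the cultures at 37.5 to 42.8 CPM. Tumor 4 was the highest tumor for 8 of the 10 genes and tumor 5 for the other two, while tumor 2 was the lowest for 9. Mouse counts of the macrophage markers were 1127, 992, 459, 1138 and 258 in tumors 1 to 5 and those of 5 neutrophil markers 5 to 11. ISG15 itself had 24, 21, 11, 15 and 4 mouse counts beside 127, 52, 134, 247 and 181 human counts. These mouse counts are not scaled to library size, and tumor 5 had the fewest mouse counts in total, 97026. The part of host cells in the result was not tested.

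Immediate early genes rose in a smaller set. Of 16 tested members, 3 were called higher and 1 lower, against 2.73% and 1.45% of all genes with unshared ends. The list's median log2 fold change was 0.81. With at least 10 counts in every library, 12 members were left, of which 0 were called higher and 1 lower, with a median of 0.48. EGR1, a zinc finger factor induced by growth factors (chr5:138465479-138469303), was at 7.04, 4.54 and 2.63 CPM in culture and 139, 201, 303, 106 and 117 CPM in the tumors. No tumor came near a culture, and tumor 3 was the highest. The log2 fold change was 5.16 ± 0.58 (adjusted p = 0.000162), the second largest rise by the rule for named genes. FOS, which pairs with JUN in the AP-1 factor, was at 1.63, 0 and 1.05 CPM against 11.7, 14.8, 37.7, 10.3 and 11.9 CPM, a log2 fold change of 4.09 ± 0.63. NR4A2, an orphan nuclear receptor, reached 56.6 CPM in tumor 3 and 4.67 to 11.9 CPM in the other tumors, and it lost its call without any 1 culture (adjusted p 0.0943 to 0.117).

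SRF, whose protein binds the CArG boxes printed above, went the other way. It was at 172, 202 and 181 CPM in culture and 41.25, 36.9, 51.0, 47.4 and 37.1 CPM in the tumors, a log2 fold change of -2.10 ± 0.14. The groups lay far apart, although upper quartile scaling put the change at -1.94, inside the limit of 2. MYC, at 71.0, 77.8 and 91.6 CPM against 192, 295, 328, 198 and 150 CPM, and KLF6, at 166, 175 and 185 CPM against 402, 415, 506, 454 and 429 CPM, were higher in every tumor than in any culture but below the limit of 4-fold. FOSL1, a FOS relative, was at 172, 156 and 166 CPM against 109, 111, 99.8, 106 and 63.9 CPM, a log2 fold change of -0.73 ± 0.14.

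Among the genes with the largest rises were secreted and transcription-related products. HGF, the ligand of the MET receptor, had 1 count over the cultures and stood at 24.1, 32.7, 284, 26.7 and 4.46 CPM in tumors 1 to 5. The ratio was 390.2 (95% counting interval 69.6 to 15460). Tumor 3 stood alone, and the call (adjusted p = 0.0394) was lost without any 1 culture (0.108 to 0.148) or without tumor 2 (0.0543). POLR2A, the largest subunit of RNA polymerase II, was at 1.63, 2.27 and 3.16 CPM in culture and 57.6, 75.9, 69.9, 72.4 and 116 CPM in the tumors. That is a log2 fold change of 4.96 ± 0.31, although every cell needs this gene.

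CITED4, a partner of the CBP and p300 coactivators, was at 4.33, 4.54 and 3.69 CPM in culture and 54.5, 44.3, 59.9, 50.01 and 50.5 CPM in the tumors. GRIK2, a glutamate receptor subunit, was at 3.25, 3.97 and 4.21 CPM against 62.3, 60.1, 75.4, 60.4 and 41.6 CPM. Both were far above culture in every tumor with little spread, with log2 fold changes of 3.61 ± 0.24 and 3.96 ± 0.26. BCHE, a secreted cholinesterase, rose by 3.90 ± 0.32 on the log2 scale, MAN1A1, a Golgi mannosidase, by 4.14 ± 0.83 and CPED1 by 3.46 ± 0.78. MAN1A1 ranged from 11.9 CPM in tumor 5 to 160.2 CPM in tumor 2 and CPED1 from 38.6 CPM in tumor 5 to 209 CPM in tumor 3, and both stayed above all cultures.

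Hypoxia-inducible genes did not rise as a group in the control tumors. Of 18 tested members, none was called higher and 3 were called lower, and the list's median log2 fold change was -0.51 (-0.34 with upper quartile scaling). CA12, a carbonic anhydrase at the cell surface (chr15:63321378-63381846), was at 811, 863 and 827 CPM in culture and 32.7, 24.2, 33.3, 50.01 and 37.1 CPM in the tumors. Its log2 fold change of -4.54 ± 0.15 (adjusted p = 4.79e-19) was among the 10 largest falls with unshared ends. STC2, a secreted glycoprotein, was at 31.4, 35.8 and 31.6 CPM against 0.778, 3.16, 2.22, 3.45 and 1.49 CPM. P4HA2, which hydroxylates collagen, was at 62.8, 65.3 and 71.1 CPM against 7.78, 10.5, 22.2, 14.7 and 14.9 CPM. In both genes the groups stood apart, and the log2 fold changes were -3.84 ± 0.33 and -2.28 ± 0.22.

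Other members of the list did not fall in every tumor. ADM, a vessel-relaxing peptide, was at 94.8, 110.1 and 107 CPM in culture and at 33.5, 24.2, 99.8, 35.4 and 37.1 CPM in the tumors, so that tumor 3 reached the culture level. DDIT4, an inhibitor of mTORC1, was at 89.4, 119 and 117 CPM against 96.5, 79.05, 249.6, 248 and 198 CPM. ANGPTL4, a secreted inhibitor of lipoprotein lipase, was at 129, 128 and 129 CPM against 386, 272, 575, 167 and 184 CPM. ANGPTL4 was thus higher in every tumor, DDIT4 in 3 of the 5. Summed over the 18 genes, tumors 1 to 5 stood at 1509, 1522, 2853, 1609 and 1916 CPM and the cultures at 2615 to 2733 CPM. Tumor 3 was the highest tumor for 13 of the 18, and without it the list's median was -0.77. The letters ACGTG or GCGTG, the core that hypoxia-inducible factors bind, stood in 14 of 17 promoters of the list (82.4%), but also in 60.3% of the promoters of tested genes.

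The glycolytic enzymes lay lower as well. None of 8 tested members with unshared ends was called higher and 1 was called lower, and all 8 were below 0 with a median of -1.16. LDHA, which turns pyruvate into lactate, was at 2449, 2932 and 2704 CPM in culture and 535.5, 523, 950.5, 636 and 443 CPM in the tumors. Its log2 fold change was -2.12 ± 0.21, or -1.96 with upper quartile scaling. HK2, the first enzyme of the pathway, was at 99.1, 99.9 and 126 CPM against 43.6, 46.4, 69.9, 15.5 and 37.1 CPM. In LDHA and HK2 every tumor lay below every culture, and tumor 3 was the highest tumor. Over all members, shared ends included, 4 of 15 were called lower, against 6.05% of all genes.

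Matrix genes moved both ways. Of 19 tested collagens and matrix proteins, 4 were called higher and 6 lower, and the median of -0.11 turned to 0.05 with upper quartile scaling. The higher calls numbered 2 without tumor 3 or tumor 5. Leaving out all genes with more mouse than human counts in the tumors left 6 members, with none called higher and 2 lower. Among the members it removed, TGFBI had 16 human and 74 mouse counts over the tumors, COL4A2 had 6 and 204, COL5A1 had 5 and 138, and TNC had 35 and 267. TGFBI, a matrix protein induced by TGF-beta (chr5:136028988-136063818), was at 145, 172 and 139 CPM in culture and 0, 4.22, 3.33, 5.17 and 4.46 CPM in the tumors. COL4A2, a chain of basement membrane collagen, was at 53.6, 46.6 and 46.3 CPM against 0, 1.05, 0, 1.73 and 4.46 CPM. LOXL2, which cross-links collagen, was at 420.3, 432 and 409 CPM against 28.0, 37.9, 33.3, 29.3 and 19.3 CPM. All tumors lay far below culture in these genes, with log2 fold changes of -5.51 ± 0.27, -5.23 ± 0.38 and -3.81 ± 0.15. COL5A1, COL17A1 and TNC fell as well, by 3.97, 2.53 and 2.21 on the log2 scale. TNC came to -1.96 without tumor 1.

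COL1A1, the main fibrillar collagen of fibroblasts, had the largest rise of the list. It was at 1.63, 1.14 and 1.05 CPM in culture and 65.4, 70.6, 25.5, 20.7 and 43.1 CPM in the tumors, a log2 fold change of 5.06 ± 0.63. Its human counts in tumors 1 to 5 were 84, 67, 23, 24 and 29 beside 1109, 1181, 479, 357 and 463 mouse counts, so that the human counts were 4.802% to 7.57% of the mouse counts in every tumor. COL6A3 and COL12A1, with log2 fold changes of 3.45 ± 0.75 and 3.40 ± 0.48, had 43 and 80 human counts over the tumors beside 236 and 223 mouse counts. COL5A2, the fourth higher call, lost it without culture 2 (adjusted p = 0.07085). SPARC had 400 human and 2222 mouse counts and a log2 fold change of -0.11 ± 0.25. Mouse counts over 8 fibroblast markers were 2909, 2986, 1159, 1012 and 1092. Whether mouse reads entered the human table was not tested. Of the matrix proteases and their inhibitors, 2 of 10 were called, both higher. MMP1, a collagenase, was at 7.04, 2.27 and 4.74 CPM against 33.5, 20.02, 109.8, 93.1 and 34.2 CPM. TIMP1, an inhibitor of such enzymes, had a log2 fold change of 2.03 ± 0.38 that rested on tumor 3 (1016 CPM against 385 to 441 CPM in the others) and came to 1.68 without it.

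**Figure D4:**
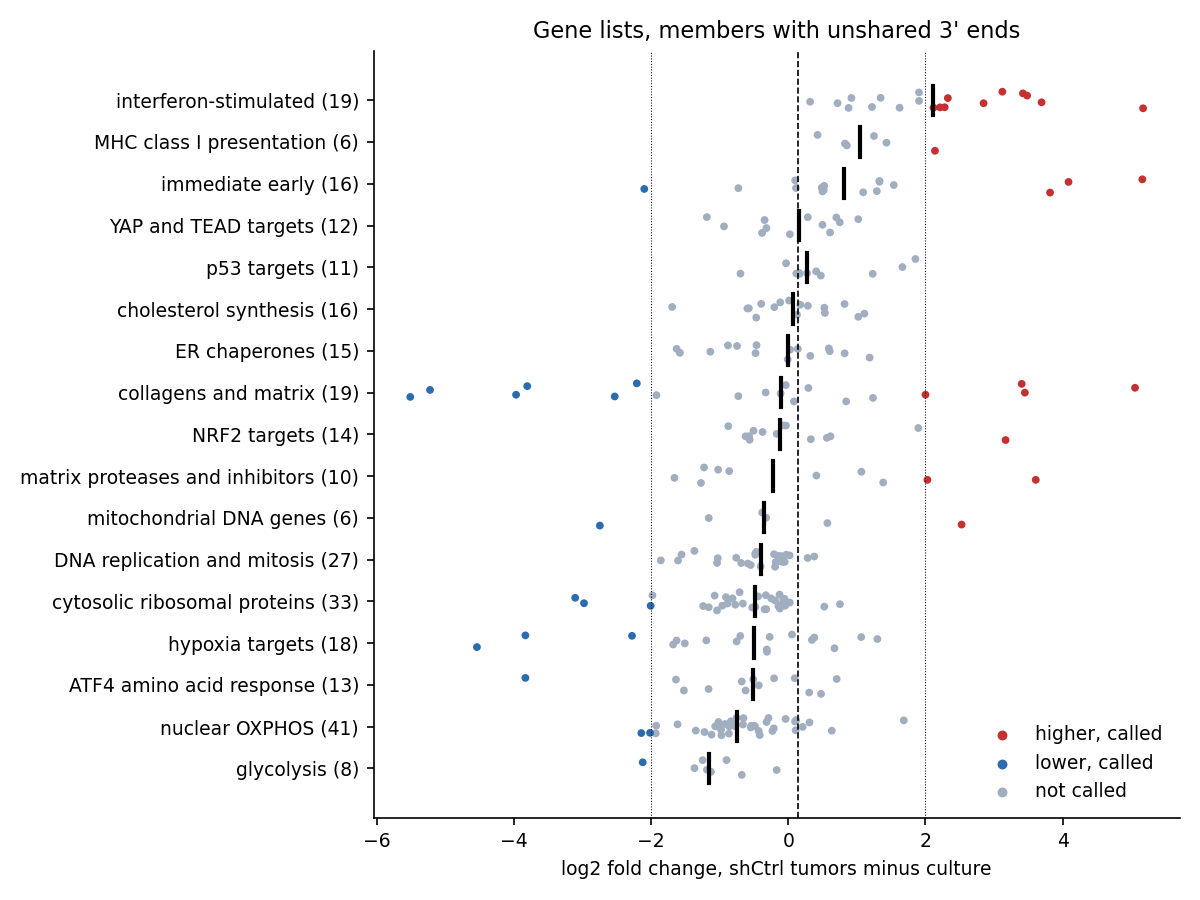
Log2 fold change between shCtrl tumors (n = 5) and cultures (n = 3) for the tested genes with unshared ends of 17 gene lists, one point per gene. The black bar is the median of each list (2.12 for interferon-stimulated genes, -0.51 for hypoxia targets), the dashed line the median of all genes with unshared ends (0.15) and the dotted lines the limits of -2 and 2.

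CDH11, the gene that the study silenced, had few counts in the cultures of control cells and was higher in their tumors. It had 2, 4 and 4 counts in cultures 1 to 3 and 21, 12, 15, 32 and 5 human counts in tumors 1 to 5, which is 1.08, 2.27 and 2.11 CPM against 16.3, 12.7, 16.6, 27.6 and 7.43 CPM. The groups did not overlap, and the log2 fold change was 3.15 ± 0.45 (adjusted p = 1.29e-06). The mouse table held 30, 23, 12, 27 and 9 counts of the same gene in these tumors. Whether some of the human counts came from mouse reads was not tested. By RT-qPCR, the paper reports CDH11 as high in cultured UM-UC-3 against HT1197 and HT1376, bladder cancer lines not sequenced here. It also reports CDH11 RNA and protein as reduced by both hairpins. The few culture counts given here were not compared with those assays. CDH2, the other mesenchymal cadherin, went down, from 57.4, 56.2 and 52.1 CPM to 10.1, 8.43, 27.7, 10.4 and 0 CPM. Of the 8 tested mesenchymal and epithelial markers, 2 were called higher and 2 lower. The other higher call was JUP, the desmosomal plakoglobin, with 3 counts in culture and 43 in the tumors (ratio 15.9, 95% counting interval 5.09 to 80.1). The other lower call was the tight junction protein OCLN, with a log2 fold change of -2.32 ± 0.35.

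HMOX1, which degrades heme and is induced by heme and oxidative stress, was at 47.1, 46.0 and 45.3 CPM in culture and 303, 483, 626, 252 and 425 CPM in the tumors, a log2 fold change of 3.17 ± 0.32. It was the only called gene among 14 NRF2 targets, whose median was -0.12. Counts of 5 mouse red blood cell genes were 615 to 2171 in the same tumors. The human counts of HMOX1 were 217% to 406% of its mouse counts.

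Lists of respiration, translation and division genes had medians below 0 with few or no calls. Of 41 nuclear genes of oxidative phosphorylation, none was called higher and 2 were called lower, with a median of -0.76. No gene of that list was called with upper quartile scaling or with the length trend removed, and 1 was called without tumor 3 or tumor 5. Of 33 cytosolic ribosomal protein genes 3 were called lower and none higher (2 lower without culture 2, tumor 2 or tumor 5; median -0.48), and of 27 genes of replication and mitosis none was called either way (median -0.40) by edgeR or DESeq2, with 2 higher and 14 lower at an unadjusted p under 0.05. With the trend in transcript length removed, the medians were -0.34, -0.12 and -0.44. Over all tested genes, the median log2 fold change ran from -0.42 in transcripts under 1000 bases to 0.38 in the bin of the longest transcripts. The replication genes together stood at 4947, 4891, 3750, 4476 and 4113 CPM in tumors 1 to 5 and at 6217 to 6709 CPM in culture.

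Mitochondrial DNA is copied into long transcripts from both strands, and its genes did not move together. MT-ND3, a subunit of complex I, was at 13864, 14801 and 14400 CPM in culture and 1995, 2423, 1923, 1977 and 2362 CPM in the tumors, a log2 fold change of -2.75 ± 0.10, or -1.94 with the length trend removed. MT-ND6, the subunit encoded on the other strand, was at 749.6, 685 and 700.1 CPM against 3665, 4431, 4617, 4118 and 3673 CPM, a log2 fold change of 2.53 ± 0.12. Both differences were far larger than the spread within either system. Whether counting used the strand is not given in the sources used here, so that the part of the opposite strand in MT-ND6 cannot be told apart. MT-CO2 and MT-CYB stood between them at log2 fold changes of -0.38 ± 0.08 and -0.32 ± 0.09.

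The CDH11 KD libraries gave a second set with no library in common, made with the same 2 library types. There 209 of 6452 genes with unshared ends (3.24%) were called higher in tumors and 120 (1.86%) lower. The interferon-stimulated list held 13 of 21 members called higher and none lower, with a median of 2.81, and ISG15 had a log2 fold change of 3.56 ± 0.28. CA12, TGFBI and LOXL2 had log2 fold changes of -3.78, -4.50 and -3.38 in the CDH11 KD tumors. POLR2A was at 5.16 and COL1A1 at 6.10. Mouse counts made up 10.35% to 30.02% of all counts of a CDH11 KD tumor. Whether mouse reads entered the COL1A1 counts there was not tested.

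The difference between the 2 sets was tested gene by gene as the tumor minus culture difference in shCtrl less that in CDH11 KD, in a fit of all 24 libraries. That fit scales and weights the libraries together, so its value is close to, but not the same as, the subtraction of the 2 separate log2 fold changes given beside it. In this contrast a constant factor between the library types cancels. A difference between shCtrl and CDH11 KD in culture enters it as much as one in tumors. The contrast alone cannot tell these apart. The difference is a signed value. A larger one in shCtrl lies higher, as with a stronger rise or a weaker fall in tumors. A smaller one lies lower, as with a weaker rise or a stronger fall. Of 6909 genes with unshared ends, 391 (5.66%) had a larger difference in shCtrl and 451 (6.53%) a smaller one at an adjusted p under 0.05. The larger count came to 239, 254 and 234 without culture 1, 2 or 3. Among interferon-stimulated genes 1 of 21, the exonuclease ISG20, was larger and none smaller, and ISG20 missed the threshold without culture 2 (adjusted p = 0.0601). For ISG15 the 2 differences were 0.15 ± 0.71 apart and for OAS1 -1.49 ± 0.93, standard errors that leave room for differences of over 2-fold.

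Hypoxia targets stood out here, with 10 of 20 larger in shCtrl and none smaller, and a median difference of 1.03. The paper reports hypoxia-related genes as higher in cultured CDH11 KD cells. How much of these differences arose in culture was not tested. ADM had a log2 fold change of -1.20 ± 0.38 in shCtrl and -4.58 in CDH11 KD, which differed by 3.41 ± 0.48 (adjusted p = 1.02e-04). DDIT4 was at 0.67 and -2.13, ANGPTL4 at 1.30 and -1.50, and INSIG2, a brake on sterol synthesis, at 0.38 and -1.92. The differences of ADM, DDIT4, ANGPTL4, INSIG2 and the MYC antagonist MXI1 stayed past the threshold under each alternative run that tested the gene. Without tumor 3, 7 genes of the list were larger, with a median of 0.74, and without culture 1 or culture 2 it was 6. The median over the list in CDH11 KD was -1.95, with 9 of 20 called lower.

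**Figure D5:**
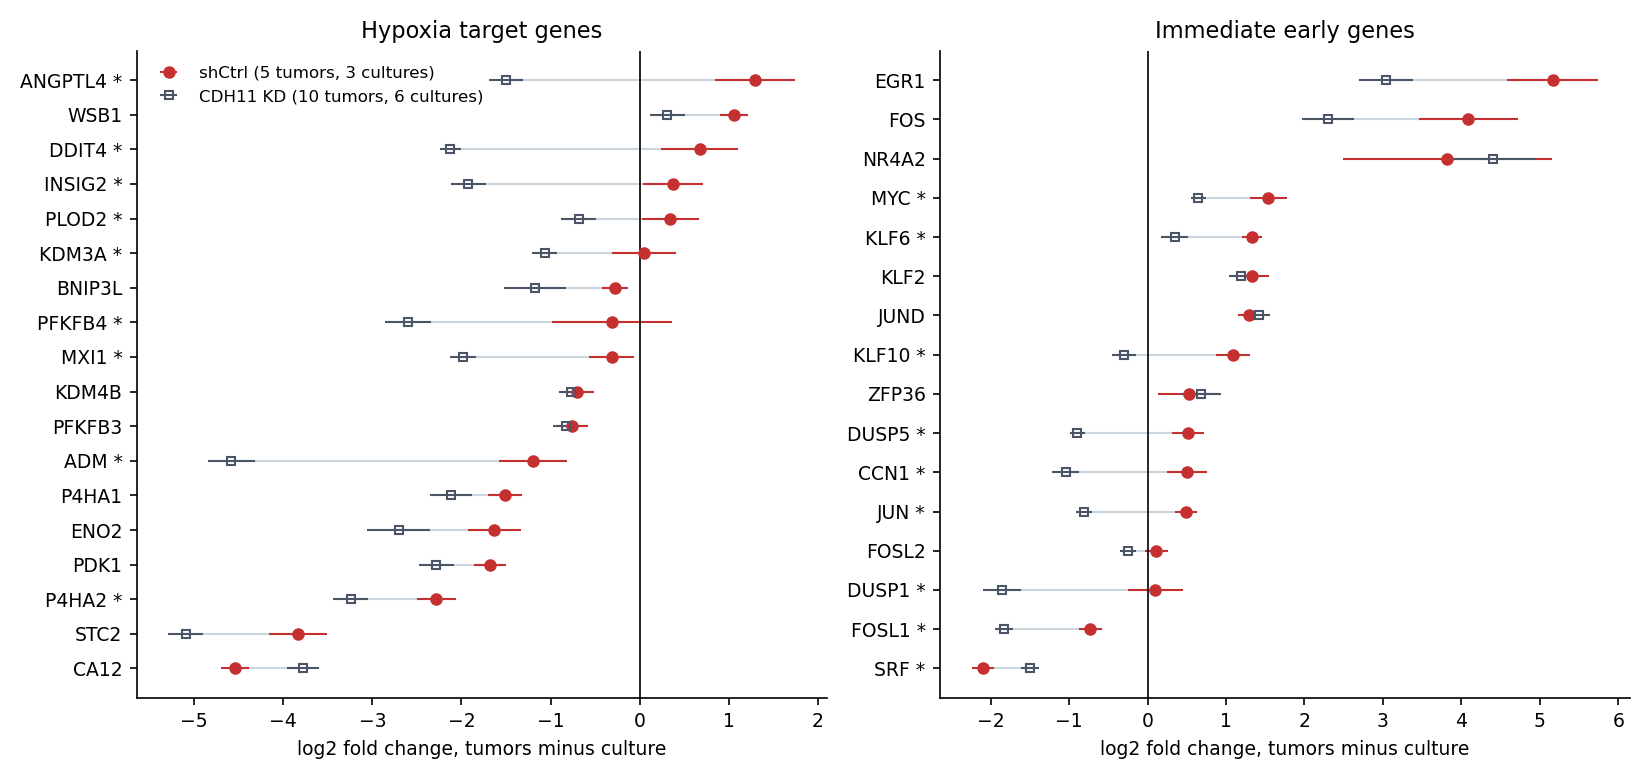
Log2 fold change from culture to tumor with its standard error for hypoxia and immediate early genes, in shCtrl (3 cultures, 5 tumors) and CDH11 KD (6 cultures, 10 tumors). An asterisk marks a tested difference between the 2 sets at an adjusted p under 0.05. ADM lies at -1.20 in shCtrl and -4.58 in CDH11 KD.

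Immediate early genes were larger in shCtrl in 8 of 16 cases and smaller in 1, SRF (-0.61 ± 0.18), which missed the threshold without culture 2 (adjusted p = 0.0703). JUN was at 0.49 in shCtrl and -0.81 in CDH11 KD, DUSP1, a MAP kinase phosphatase, at 0.10 and -1.86, and FOSL1 at -0.73 and -1.83. For EGR1 the difference of 2.24 ± 0.78 did not pass the test (adjusted p = 0.0697). HMOX1 was at 3.17 in shCtrl and 0.47 in CDH11 KD, and differed by 2.33 ± 0.39 in the fit of all libraries. Ribosomal protein genes were larger in shCtrl in 27 of 33 cases (median 0.48) and oxidative phosphorylation genes in 12 of 41, with 1 smaller. Without culture 1, 2 or 3 the larger counts were 19, 21 and 20 for the first list and 6, 7 and 7 for the second. With upper quartile scaling they were 21 and 8, and without tumor 5 they were 30 and 18. Both lists had medians below 0 in shCtrl (-0.48 and -0.76) and in CDH11 KD (-0.87 and -0.88).

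NDUFC2, TIMM21 and WNT7B, which the study also names, did not pass the 4-fold limit in the control cells. NDUFC2, a complex I subunit whose end overlaps THRSP by 11%, was at 245, 287 and 260.0 CPM in culture and 75.5, 75.9, 67.7, 96.6 and 56.4 CPM in the tumors. TIMM21, a mitochondrial import subunit, and WNT7B, a secreted Wnt ligand, had log2 fold changes of 0.00 ± 0.21 and -0.27 ± 0.17. As a signed value, the tumor minus culture difference in shCtrl lay below that in CDH11 KD. The gap was 1.01 ± 0.17 for NDUFC2, 1.15 ± 0.28 for TIMM21 and 0.84 ± 0.23 for WNT7B. The paper reports these genes as lower in cultured CDH11 KD cells, by RT-qPCR as well. A lower culture level in CDH11 KD widens such a gap by itself, and its part was not tested.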

How the data were processed

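Counts per gene were deposited by the authors as raw whole-number counts, in 1 table for the cultures and in human and mouse tables for the tumors. Both used 75-base single reads. Per the study's methods, culture reads were trimmed in CLC and mapped with RaNAseq, and tumor reads were trimmed with Trim Galore and mapped with HISAT2, to hg38. The counting tool, annotation, strand, molecular identifiers and the human and mouse separation are not given in the sources used here. Groups follow the labels. 13 genes of the culture table are not analysed here, and some members of the lists are not reported by name.

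Counts were tested with edgeR 4.0.16 in R 4.3.3 (TMM, filterByExpr, robust quasi-likelihood, Benjamini-Hochberg over all genes tested), and standard errors were derived from the F statistic. The steps were tested on simulated data. Transcript ends came from GENCODE 44. Named genes were the 10 largest rises and falls among called genes that averaged 50 or more counts in the higher system and did not overlap, up to 4 called members of each list (or the 2 most expressed), and genes the study names. The same rule within unshared ends, and other list members with the values shown, were added after values had been seen. Members and lists were chosen with earlier results of these data known. Alternatives included DESeq2 1.42.0, other scalings and filters, each library left out, and a replicate block. Replicate pairs differed by more than sampling noise (chi-square per degree of freedom 1.28 to 3.68). Same-numbered cultures and tumors did not deviate together (r = -0.04, -0.02 and -0.02), so the numbers do not pair them.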

Additional observations from a re-analysis of the deposited data

Results flagged for a closer look

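The 126 sets of 5 tumor values examined were 124 genes described here, the human total and the mouse percent. In 12 of the 126 sets, 1 tumor stood apart by Dixon's test, where chance gives about 1 in 20 for normally distributed values. Gene values were untransformed CPM, so that this rate is only a rough guide. In 7 of them the tumor was tumor 3, with the highest normalized CPM of HGF (283.9), GABARAP (1.109), ADM (99.82), PGK1 (746.5), NR4A2 (56.57), FOS (37.71) and TIMP1 (1016). Tumor 4 was apart for EMC6 (0.8623), IFIT5 (31.91) and SAMD9L (26.73), and tumor 5 for PARP14 (197.6) and, as the lowest, FOSL1 (63.87). The values of GABARAP and EMC6 are 1 count each. Why tumor 3 stood apart was not tested.

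For 32 of the genes, the tumor minus culture difference on the log2 scale differed between shCtrl and CDH11 KD at an adjusted p under 0.05 (edgeR's quasi-likelihood test of the interaction). The difference was larger in shCtrl for the hypoxia targets ADM (3.409), DDIT4 (2.797), ANGPTL4 (2.792), PFKFB4 (2.336), INSIG2 (2.287), MXI1 (1.664), KDM3A (1.098), PLOD2 (1.002) and P4HA2 (0.8754), and for HK2 (1.554). The same held for the immediate early genes DUSP1 (1.983), CCN1 (1.532), DUSP5 (1.412), KLF10 (1.371), JUN (1.292), FOSL1 (1.092), KLF6 (0.9827) and MYC (0.8882), while SRF was smaller (-0.609). It was also larger for the inflammatory genes CXCL8 (2.878), BIRC3 (2.047) and TNFAIP3 (1.966), for HMOX1 (2.328), for PLAUR (1.121) and for ISG20 (1.146). The signed difference was smaller in shCtrl for COL4A1 (-1.509), LAMA5 (-0.8485), CTSB (-0.5541), MT-ND3 (-0.9546), NDUFC2 (-1.014), TIMM21 (-1.146) and WNT7B (-0.8444). COL4A1 had 23 human counts beside 454 mouse counts over the shCtrl tumors, and the part of mouse reads in its difference was not tested. For genes that fell in tumors, smaller stands for a stronger fall in shCtrl and larger for a weaker one. A difference between the cultures enters each value as much as one between the tumors. P4HA2, PLOD2, PFKFB4 and KLF6 missed the threshold without culture 1, 2 or 3, and KDM3A, HK2, SRF, MYC, ISG20, COL4A1 and LAMA5 without at least 1 library.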

How the results depend on the processing

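The numbers of calls moved with the filter on low counts and with the rule for a call. With no filter, 636 genes were called higher and 832 lower (495 and 189 with unshared ends). With at least 10 counts in every library the numbers were 55 and 139 (44 and 43). With edgeR's glmTreat against a log2 fold change of 1 they were 428 and 864 (355 and 252). A fit of genes with unshared ends only, chosen after seeing the data, called 112 lower. In CDH11 KD, at least 10 counts in every library left 59 higher and 135 lower (55 and 62 with unshared ends). Leaving out each library in turn gave 199 to 255 higher and 545 to 566 lower calls (158 to 206 and 95 to 102 with unshared ends). In the test of the difference between shCtrl and CDH11 KD it gave 351 to 693 larger and 412 to 715 smaller (234 to 490 and 319 to 567 with unshared ends). A replicate block, although the numbers do not pair the samples, gave 306 higher and 647 lower. Of 65 called genes named here, 50 kept their call in every setting that still tested them and 15 lost it in at least 1. No direction turned. A gene that a filter removed was not counted as lost there. With at least 10 counts in every library, 2 interferon-stimulated and 0 immediate early genes were still called higher. Depth limits genes of a few counts per library, mostly those near 0 in culture. The cause of these changes was not tested beyond the number of genes each setting leaves.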

Other observations

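Several other gene groups held few calls. Of 16 cholesterol synthesis genes with unshared ends, none was called by edgeR or DESeq2 (4 higher and 5 lower at an unadjusted p under 0.05), and the median of 0.07 turned to -0.04 in a fit of unshared genes alone. Of 11 p53 targets none was called by either tool (4 higher and 1 lower at an unadjusted p under 0.05, median 0.27), and of 12 YAP and TEAD targets none (4 higher and 5 lower, median 0.15). The 15 chaperones of the endoplasmic reticulum held no call by either tool (3 higher and 7 lower), with a median of -0.01 that turned to 0.15 under upper quartile scaling. Of 13 genes of the ATF4 amino acid response 1 was called lower (median -0.51). Of 7 replication-dependent histone genes 1 was called higher by edgeR and 3 by DESeq2, and all 7 were above 0 (median 1.12). Inflammatory genes held 1 lower call among 9 in the control cells, but 4 of 10 had a larger tumor minus culture difference in shCtrl than in CDH11 KD, CXCL8 by 2.88 ± 0.49 on the log2 scale. CXCL8, the neutrophil chemokine, was at 3.25, 2.84 and 3.69 CPM in culture and 8.56, 5.27, 13.3, 7.76 and 10.4 CPM in the control tumors.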
